A study of Homo sapiens with 12 samples.

Results

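Polysomal RNA was compared with total RNA in A375 cells, an established human melanoma line, after 24 h of interferon-gamma (IFNg). The comparison used 4 of the 12 Affymetrix arrays of the series, 2 of polysomal and 2 of total RNA, picked by their titles, and all 65535 transcript clusters, each a group of probes designed against a single transcribed region. The other 8 arrays held both fractions of cells given DMSO, the solvent control, for 2 h and of cells given IFNg for 24 h with silvestrol for 2 h, again 2 per group. Silvestrol is a plant compound that inhibits the RNA helicase eIF4A and so the initiation of translation. No label names a vehicle for the IFNg cells, which also differed from the DMSO cells in hours of treatment, and nothing in the labels makes the 2 replicates separate cultures, so a p-value here may reflect technical spread alone.

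A messenger RNA that several ribosomes translate at once sediments as a polysome, and RNA that ribosomes do not read, such as spliceosomal, nucleolar and most long noncoding RNA, is largely left out of that fraction. The difference between polysomal and total RNA of a cell therefore serves as a reading of how its messages are distributed between ribosome-bound and other pools. IFNg acts through its cell surface receptor and switches on antigen presentation genes, guanylate-binding proteins and chemokines.

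Each value below is a level, the log2 of the deposited intensity, or a difference, the polysomal minus the total level. Clusters with a mean level of at least 7 over the 12 arrays, 7808 in number, are called bright. Identifiers place the clusters on chromosomes 1 to 9, by the array maker's naming, so each gene list or rank below covers only clusters placed there. Platform annotation gives 1 gene symbol to 16130 clusters, several to 419 and none to 48986. Of 7 melanoma markers, MITF had a mean level of 13.15 and MLANA of 5.89, and the other 5 were not measured in these rows. PTPRC, CD14 and PDGFRB, markers of leukocytes and fibroblasts, had mean levels of 4.77, 4.89 and 5.52, none of them bright, and the other 4 markers of those cells were not measured in these rows. Both polysomal IFNg arrays were dimmer than the other 10: their mean intensity was 1237 and 1347 against 1469 to 1720, and the median level of bright clusters was 9.44 and 9.52 against 9.75 to 10.10.

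In IFNg cells, RMRP, Y RNAs, 18 long noncoding RNAs and 6 ribosomal protein messages were among clusters lower on polysomes than in total RNA. So were 5 messages of translation factors or their regulators, while STING1, MOGS and TAP2 were among those higher. With limma's moderated test and Benjamini-Hochberg adjustment over all clusters, 118 clusters (0.18%) were higher on polysomes and 687 (1.05%) were lower at an adjusted p below 0.05. Among bright clusters 64 (0.82%) were higher and 509 (6.52%) lower, so that 88.8% of the bright calls were lower. Both polysomal levels lay above both total levels in 19.7% of all and 15.2% of bright clusters, and below them in 21.1% and 46.5%, the background for every statement below that the fractions did not overlap. The bright clusters as a whole had a median difference of -0.37, and all clusters one of 0.01. Within the replicate numbers the bright median was -0.32 and -0.40. Across the 7808 bright clusters the replicate 1 difference and the replicate 2 difference had a Pearson correlation of 0.570, given as a description because clusters are not independent. The balance of the calls depended on how the arrays were scaled: centring each array on its bright clusters gave 950 higher and 384 lower and moved the median of all clusters to 0.40, quantile normalization over all arrays gave 236 and 404, and quantile normalization within each fraction gave 173 and 540. Leaving out replicate 2 of total RNA left 3 higher and 112 lower, and leaving out replicate 2 of polysomal RNA left 6 and 116. Without replicate 1 of total RNA there were 42 and 356, and 356 were lower without replicate 1 of polysomal RNA. Of the 51 clusters named by rule below, 43 lost their call without either replicate 2 array, and 7 kept it under every alternative tried: RMRP, NREP, VTRNA1-3, FAM200B, GNG12, DPY30 and 1 of 2 MIR548N clusters. The arrays show the composition of each fraction: fewer cells holding an RNA and less of it per cell cannot be told apart, nor is the amount of polysomal RNA per cell known.

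The 64 bright clusters higher on polysomes had a median difference of 1.71, from 1.25 to 2.36, and 11 of them exceeded 4-fold. The 509 lower ones had a median of -1.91, from -6.86 to -1.09, with 219 beyond 4-fold and 49 beyond 8-fold. By RefSeq gene type, 45 of 4045 bright protein-coding clusters were higher and 168 (4.15%) lower. Of 83 bright long noncoding RNA clusters, 0 were higher and 18 (21.7%) lower. Of 17 bright small nuclear RNA clusters, 0 were higher and 5 (29.4%) lower. Of 9 bright small nucleolar RNA clusters and of 10 ribosomal RNA clusters, 0 were higher and 0 lower. Of 39 bright microRNA clusters, 0 were higher and 2 (5.13%) lower. Among all bright clusters 0.82% were higher and 6.52% lower. The 5 small nuclear RNA clusters include RNU1-2 and RNU1-4, which carried identical values on every array and so are a single measurement. No gene symbol was given for 210 of the 509, of which 41 exceeded 8-fold.

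**Figure D1:**
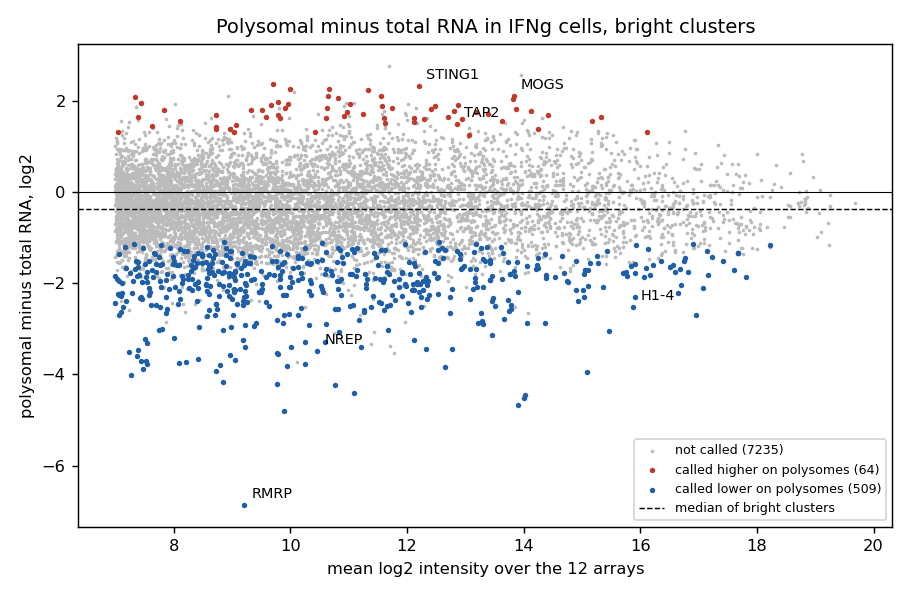
Each point is 1 of the 7808 bright clusters, with its mean log2 intensity over the 12 arrays on the x axis and the polysomal minus total difference in IFNg cells (log2) on the y axis. The 509 clusters called lower (blue) reach -6.86 and the 64 called higher (red) reach 2.36, and the dashed line is the bright median of -0.37.

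RMRP, the RNA of the RNase MRP complex that cuts precursor ribosomal RNA in the nucleolus, stood farthest from 0 among all clusters. The cluster carries the RMRP symbol in the platform annotation without an Entrez identifier, so its identity rests on that symbol. Its levels in IFNg cells were 12 and 12.70 in total RNA and 5.29 and 5.69 in polysomal RNA. The fractions did not overlap, and the difference was -6.86 ± 0.48 (SE, 2 arrays per group, adjusted p = 0.000201), or 116-fold. No detection call accompanies the values, so the polysomal levels are not separated from background and the fold rests on them. In DMSO cells RMRP lay at 9.26 and 9.27 in total RNA and 7.06 and 7.50 on polysomes. In silvestrol cells the levels were 11.22 and 11.31 against 10.55 and 8.63. RMRP was thus brightest in total RNA and dimmest on polysomes in the cells given IFNg alone, and neither of the other 2 fraction differences, -1.98 and -1.68, passed the test.

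The fraction difference of RMRP in IFNg cells minus that in DMSO cells was -4.88 (adjusted p = 0.0105), and minus that in silvestrol cells it was -5.19 (adjusted p = 0.0262), both from the interaction contrasts of the same fit. These 2 contrasts share the 4 IFNg arrays.

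Some other short RNAs that work without being translated were lower as well. VTRNA1-3, a vault RNA, went from 9.0 and 8.04 in total RNA to 4.87 and 5.22 on polysomes, a difference of -3.47 ± 0.47 (adjusted p = 0.00544). RNY5, a Y RNA of the Ro ribonucleoprotein, lay at 10.88 and 9.74 in total and at 6.53 and 8.16 on polysomes (difference -2.96, adjusted p = 0.0333). RNY1, of the same family, lay at 14.49 and 14.28 against 11.22 and 11.99 (difference -2.78, adjusted p = 0.0039). With RMRP these were the 4 lower of 7 bright clusters of Y RNAs, vault RNAs and RMRP, a list drawn up after the values were seen. The median of the 7 was -2.78 in IFNg cells, -1.24 in DMSO cells and -1.47 in silvestrol cells, against bright medians of -0.37, -0.02 and -0.22.

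RNU4ATAC, the U4atac RNA of the minor spliceosome, had total levels of 17.15 and 15.90 and polysomal levels of 13.90 and 13.03 (difference -3.05, adjusted p = 0.0116). Its difference was -2.31 in DMSO cells and -1.91 in silvestrol cells, where it did not pass. Some clusters of the U1 RNA, which recognises the start of introns, also ran lower. RNU1-2 and RNU1-4 carried identical values on every array and so are a single measurement. They lay at 18.12 and 18.05 in total and 16.50 and 17.01 on polysomes (difference -1.33, adjusted p = 0.0397). This call was kept in 12 of the 24 alternatives tried. The U1-derived clusters RNU1-88P, RNU1-34P, RNU1-82P and RNU1-35P, named because they passed, had differences of -1.83, -1.27, -1.28 and -1.37. They kept their calls in 20, 13, 15 and 17 of the 24 alternatives tried. In DMSO cells their differences were -1.11, -0.72, -0.70 and -0.45 and that of RNU1-2 and RNU1-4 was -1.09, none past the threshold. The interaction of RNU1-2 and RNU1-4 with DMSO cells was -0.24 (adjusted p = 0.943). Other bright clusters with an RNU1 symbol did not pass in IFNg cells, with differences from -1.38 for RNU1-106P to 0.33 for RNU1-87P. All 17 bright small nuclear RNA clusters lay below 0 in DMSO cells, with a median of -0.96, against -1.26 in IFNg cells and -0.10 in silvestrol cells. Near-identical copies of U1 can share signal, so these clusters may not be separate RNAs.

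Of 159 bright clusters for small RNA genes of all kinds, 0 were higher and 14 (8.81%) lower on polysomes in IFNg cells, near the 6.52% of all bright clusters. Quantile normalization over all arrays and centring on bright clusters each gave 1 higher and 8 lower, and quantile normalization within each fraction 0 and 9. Their median difference was -0.45 in IFNg cells, near the bright median of -0.37, -0.09 in DMSO cells and 0.36 in silvestrol cells, and it stayed below 0 in IFNg cells under each scaling tried, between -0.49 and -0.05. Among the 14 were MIR548AC, MIR3143, the host gene MIR4435-2HG and 2 clusters assigned to MIR548N, with differences from -2.57 to -1.86. MIR3143 was also lower in DMSO cells (difference -2.54, adjusted p = 0.0264). A cluster placed on a microRNA gene can also read the longer transcript around it, and the files do not separate them. SNORD46, a guide RNA for ribosomal RNA methylation by its symbol, had a difference of -1.70 (adjusted p = 0.0411). It kept its call in only 10 of the 24 alternatives tried. A second cluster of that symbol on another chromosome was dim (mean level 3.80, difference -0.03).

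Long noncoding RNAs, 18 of 83 bright clusters lower (21.7%, against 6.52% of all) and 0 higher, had a median below that of all bright clusters. The 83 had a median difference of -0.88 in IFNg cells, -0.23 in DMSO cells and -0.48 in silvestrol cells. The bright medians were -0.37, -0.02 and -0.22. Of the 83 differences, 69, 62 and 65 were below 0 in these 3 treatments. CYTOR, a cytoplasmic long noncoding RNA, lay at 14.29 and 14.27 in total RNA and 11.89 and 11.74 on polysomes, a difference of -2.47 ± 0.43 (adjusted p = 0.0171). MIR4435-2HG, a near-identical paralog of CYTOR, lay at 11.22 and 11.65 against 8.96 and 8.77 (difference -2.57, adjusted p = 0.023), and the arrays may not tell these 2 genes apart. PRRT3-AS1 had levels of 11.37 and 11.81 against 9.28 and 8.95 (difference -2.47, adjusted p = 0.00303), and its differences of -0.56 in DMSO cells and -0.12 in silvestrol cells did not pass. LINC01291 was lower in IFNg cells (-2.40, adjusted p = 0.00534) and in silvestrol cells (-1.94, adjusted p = 0.0153). The other 14 differences of the 18 ran from -2.57 for HAGLR to -1.17 for THAP9-AS1.

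**Figure D2:**
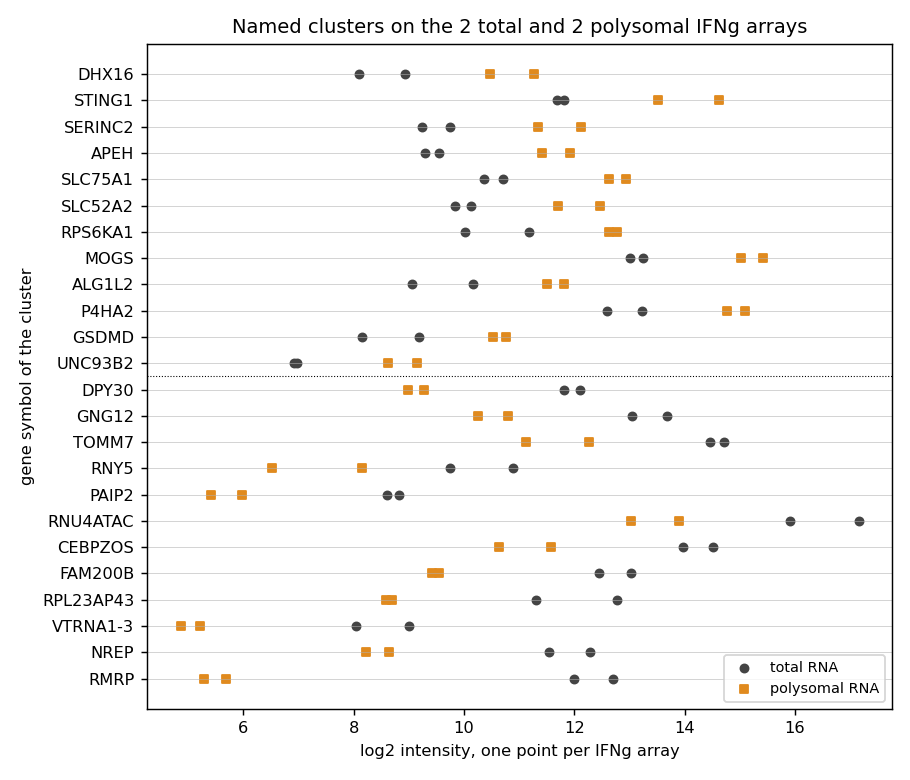
Log2 intensity (x axis) on the 2 total RNA arrays (grey circles) and the 2 polysomal arrays (orange squares) of IFNg cells for the 12 named clusters with the most positive and the 12 with the most negative difference (y axis, by gene symbol). The fractions do not overlap in any of the 24, by the rule that chose them, and RMRP shows the widest gap, from 12 and 12.70 down to 5.29 and 5.69.

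Ribosomal protein messages carry a 5′ terminal oligopyrimidine tract, a run of C and T bases at the cap through which the kinase mTOR and the RNA-binding protein LARP1 set how much of the message is on polysomes. Of 25 bright ribosomal protein clusters, 0 were higher and 6 (24%) lower on polysomes in IFNg cells, against 6.52% of all bright clusters. The median difference was -0.94, 23 of the 25 differences were below 0, and the range was -2.56 to 0.22. In DMSO cells the median of the same clusters was 0.02 with 12 below 0, and in silvestrol cells it was -0.06 with 14 below 0. No ribosomal protein cluster passed in either of those cells. The IFNg median stayed below 0 under each scaling tried, between -0.98 and -0.54. Quantile normalization over all arrays and centring on bright clusters each left 4 lower, and quantile normalization within each fraction left 5. The interaction contrast with DMSO cells called 0 of the 25, and the median level of the list on the 2 polysomal IFNg arrays, 15.36 and 15.74, lay below its 16.16 to 17.03 on the other 10.

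Sequence around the RefSeq start of the 5 called ribosomal protein genes that could be shown is given here for the pyrimidine runs, 25 bases on each side of the start, 5′ to 3′ on the gene strand, build GRCh38.p14, with every CTTTC or CTTCC in capitals.
RPL22, chr1:6199571-6199620, minus strand: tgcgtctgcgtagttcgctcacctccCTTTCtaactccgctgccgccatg
RPS27, chr1:153990737-153990786, plus strand: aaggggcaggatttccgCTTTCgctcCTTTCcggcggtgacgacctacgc
RPL31, chr2:101002264-101002313, plus strand: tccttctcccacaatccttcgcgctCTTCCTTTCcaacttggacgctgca
RPL29, chr3:51995871-51995920, minus strand: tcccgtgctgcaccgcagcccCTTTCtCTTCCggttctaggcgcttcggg
RPL22L1, chr3:170870171-170870220, minus strand: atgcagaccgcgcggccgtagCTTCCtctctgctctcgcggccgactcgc
CTTTC and CTTCC can overlap by their shared C, as in RPL31. Of the 21 ribosomal protein genes of the list with a window in the RefSeq table, 17 (81%) held CTTTC or CTTCC on the gene strand and 2 (9.52%) on the opposite strand. Among all 35116 windows the shares were 17.1% and 16.4%, and among 3348 bright protein-coding genes 25.5% and 24.5%. These matches describe letters in a window and are not shown to be sites.

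RPL29, a protein of the large subunit, had the lowest difference of the 25 bright ribosomal protein clusters. Its levels were 13.58 and 14.93 in total RNA and 11.41 and 11.99 on polysomes (difference -2.56 ± 0.43, adjusted p = 0.0162). RPL31 lay at 15.80 and 16.12 against 14.20 and 14.02 (difference -1.85, adjusted p = 0.00595). RPL22, whose protein binds RNA outside the ribosome as well, lay at 16.82 and 17.12 against 15.61 and 14.81 (difference -1.76, adjusted p = 0.0121). All 3 had near-equal fractions in DMSO cells, with differences of -0.04, -0.02 and 0.10.

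RPS27 of the small subunit lay at 17.68 and 18.31 against 16.34 and 16.21 (difference -1.72, adjusted p = 0.0161), and RPL7 at 17.43 and 17.69 against 16.32 and 15.78 (difference -1.51, adjusted p = 0.0184). RPL22L1, the paralog of RPL22, lay at 16.51 and 16.88 against 15.01 and 15.51 (difference -1.44, adjusted p = 0.0414). RPL22L1 kept its call in only 9 of the 24 alternatives tried. A second cluster annotated to RPL7 is placed on chromosome 1, while the gene and the first cluster lie on chromosome 8. It was left out of the 25 for that reason, and its difference of -0.79 did not pass. RPS10, RPL24 and RPL14 stood at the other end, with differences of -0.08, 0.05 and 0.22. Ribosomal protein genes have many processed pseudogenes whose probes can read the parent message. Of 133 bright clusters named for such pseudogenes, a list drawn up after the values were seen, 0 were higher and 20 (15%) lower, against 0.82% and 6.52% of all bright clusters, with a median of -0.71 in IFNg cells, 0.14 in DMSO cells and 0.18 in silvestrol cells. Quantile normalization over all arrays left 1 higher and 10 lower, and centring on bright clusters 1 and 12. RPL23AP43, at 11.30 and 12.77 in total RNA and 8.70 and 8.58 on polysomes, had the lowest value of these (difference -3.40, adjusted p = 0.00797), and it cannot be separated here from RPL23A and its other copies.

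Translation factors were mixed. The list takes genes by a symbol starting with EIF or EEF, so it also holds regulators such as EIF4EBP1 and EIF2AK2. Of 23 bright clusters, 0 were higher and 5 (21.7%) lower on polysomes, against 0.82% and 6.52% of all bright clusters. Quantile normalization over all arrays left 0 higher and 3 lower, and centring on bright clusters 1 and 4. The median was -0.06 in IFNg cells, which turned to between 0.12 and 0.34 under both quantile normalizations and centring on bright clusters. In DMSO and silvestrol cells the medians were 0.44 and 0.06. The 5 lower ones included 3 genes of the cap-binding step. EIF4E, the cap-binding protein, lay at 12.61 and 13.12 in total RNA and 11.04 and 10.92 on polysomes (difference -1.88, adjusted p = 0.0321). EIF4E2, a cap-binding relative that represses translation of selected messages, lay at 12.20 and 12.89 against 10.56 and 10.20 (difference -2.16, adjusted p = 0.00768).

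EIF4EBP1 encodes 4E-BP1, which holds eIF4E back from the initiation complex until mTOR phosphorylates it. Its levels in IFNg cells were 14.92 and 15.27 in total RNA and 13.52 and 13.07 on polysomes (difference -1.80 ± 0.32, adjusted p = 0.0189). In DMSO cells the polysomal levels, 15.92 and 16.24, lay above the total levels, 15.57 and 14.75. The fraction difference in IFNg cells was lower than that in DMSO cells (interaction -2.72, adjusted p = 0.0348), and the interaction with silvestrol cells, -2.22, did not pass. EIF1B, a relative of the start-codon factor eIF1, and EIF2A, a factor that can deliver initiator tRNA, had differences of -1.94 (adjusted p = 0.0068) and -1.27 (adjusted p = 0.0473). EIF2A kept its call in only 6 of the 24 alternatives tried and lost it under both quantile normalizations and centring on bright clusters (adjusted p = 0.127 to 0.243). Without replicate 2 of either IFNg fraction EIF4EBP1 had an adjusted p of 0.152 or 0.139. EEF1A1, the elongation factor that delivers tRNA and the brightest of the list, lay at 19.10 and 19.32 against 19.05 and 19.25, a difference of -0.06.

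PAIP2, an inhibitor of the poly(A)-binding protein in translation, was lower by the cluster matched to the gene by Entrez identifier (difference -1.57, adjusted p = 0.0497). That cluster was lower in silvestrol cells too (difference -1.78, adjusted p = 0.0295). A dimmer cluster that carries the symbol without an identifier went from 8.83 and 8.60 to 5.98 and 5.42 (difference -3.02, adjusted p = 0.00852). In DMSO cells the matched cluster had a difference of -0.38 and the other one of 1.55, so the second is not taken as a measurement of the PAIP2 message.

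**Figure D3:**
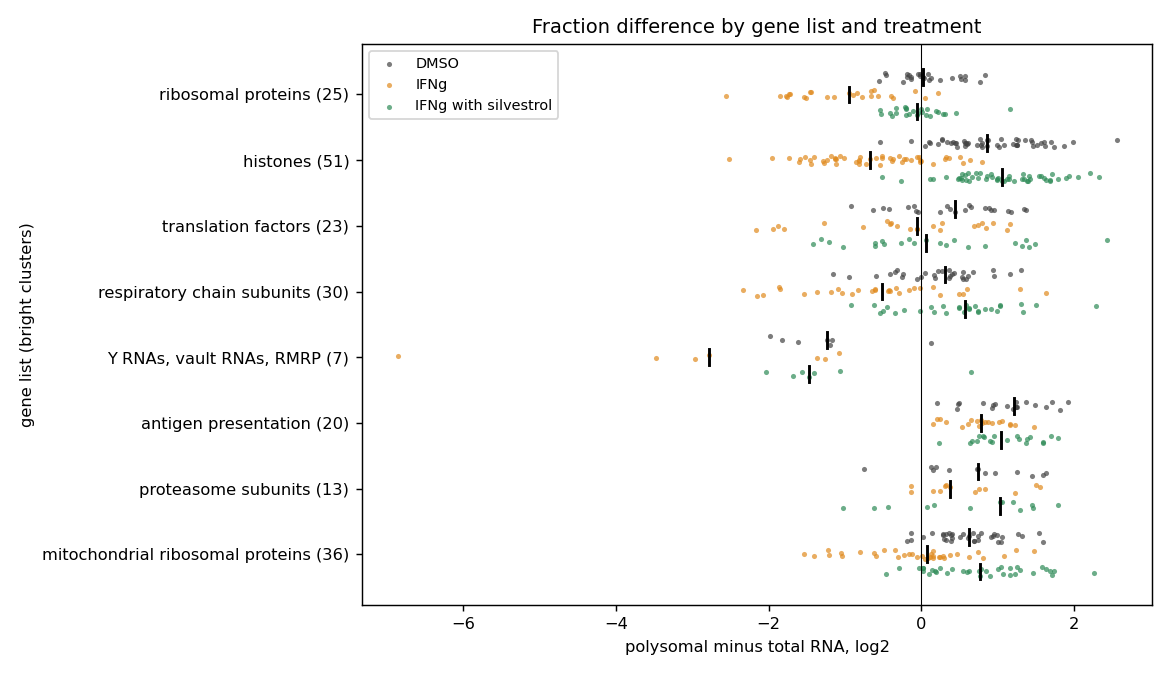
Each point is a bright cluster of a gene list (y axis, number of clusters in brackets), placed by its polysomal minus total difference in log2 (x axis) in DMSO (grey), IFNg (orange) and IFNg with silvestrol cells (green), and black bars are medians. The ribosomal protein median lies at -0.94 in IFNg cells and at 0.02 and -0.06 in the others, the histone median at -0.67 against 0.86 and 1.06, and the antigen presentation median above 0 in all 3.

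Histone messages end in a stem-loop in place of a poly(A) tail in most cases and are translated in S phase. The 51 bright histone clusters had a median difference of -0.67 in IFNg cells with 43 below 0, while in DMSO cells the median was 0.86 with 2 below 0 and in silvestrol cells 1.06 with 2 below 0. In IFNg cells the median stayed below 0 under each scaling tried, from -0.72 to -0.23, with 31 to 43 of the 51 below 0. A single histone passed the test, so that 0 were higher and 1 (1.96%) lower, below the 6.52% of all bright clusters. The median histone level was 12.91 and 13.34 in total RNA and 11.95 and 12.71 on polysomes of IFNg cells. In DMSO cells it was 14.54 and 12.66 in total RNA and 14.29 and 14.33 on polysomes, so the total RNA replicates were themselves apart by more than the IFNg fractions.

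The 1 called histone was H1-4, a linker histone. In IFNg cells it lay at 15.90 and 15.96 in total RNA and 13.84 and 12.98 on polysomes (difference -2.52 ± 0.40, adjusted p = 0.0121). DMSO cells had 16.59 and 15.20 against 16.84 and 16.49, and silvestrol cells 16.62 and 16.64 against 16.93 and 16.58. The 2 polysomal IFNg arrays were thus below all other 10. The interaction with DMSO cells was -3.29 (adjusted p = 0.0455) and that with silvestrol cells -2.64, which did not pass. Core histone genes have near-identical copies, and their clusters may share signal.

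Genes of antigen presentation had differences above 0. All 20 bright clusters of the list had positive differences in IFNg cells, from 0.15 to 1.48 with a median of 0.79, and 1 (5%) passed, against 0.82% of all bright clusters. Under both quantile normalizations and centring on bright clusters 2 to 5 passed. The 20 were also above 0 in DMSO cells (median 1.22) and in silvestrol cells (median 1.04), and in IFNg cells under each scaling tried. TAP2, one chain of the transporter that carries peptides into the endoplasmic reticulum, was the called one. It lay at 14.28 and 13.70 in total RNA and 15.41 and 15.52 on polysomes (difference 1.48 ± 0.31, adjusted p = 0.0406). TAP2 kept its call in 13 of the 24 alternatives tried. Its partner TAP1 lay at 15.50 and 15.40 against 16.64 and 16.59, a difference of 1.16 with an adjusted p of 0.0506.

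The class I heavy chain genes HLA-B, HLA-C, HLA-E, HLA-F and HLA-G had differences of 0.15, 0.61, 0.65, 0.93 and 0.88, none past the threshold. Class II genes ranged from 0.21 for HLA-DRA to 1.17 for HLA-DRB1. HLA genes resemble one another and vary between people, and a probe set may read more than one of them. The median level of the list was about 15 in total RNA of IFNg cells, 15.02 and 15.15, against 10.12 and 10.15 in DMSO cells, and the fraction differences were positive at both of these levels.

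Other genes that IFNg induces had differences on both sides of 0. Of 10 bright clusters, 0 were higher and 1 (10%) lower, against 0.82% and 6.52% of all bright clusters, and the median of -0.32 turned to 0.08 under quantile normalization over all arrays and under centring on bright clusters. GBP3, a guanylate-binding protein of cell-autonomous defence, was the lower one: 11.11 and 11.35 in total RNA and 9.98 and 9.45 on polysomes (difference -1.51, adjusted p = 0.0269). That call was lost under both quantile normalizations and centring on bright clusters (adjusted p = 0.0552 to 0.093). In DMSO cells it was dim, at 5.66 and 5.68 against 6.60 and 6.76, so its interaction of -2.52 (adjusted p = 0.0317) sets a bright level against one below 7. Silvestrol cells had a difference of -1.19, and the interaction with them was -0.32 (adjusted p = 0.946). IDO1, the tryptophan-degrading enzyme, lay at 18.18 and 18.85 against 18.23 and 18.83, a difference of 0.01. CD274, the checkpoint ligand PD-L1, lay at 13.77 and 12.88 against 13.90 and 13.17 (difference 0.21, adjusted p = 0.862). IRF1, an early transcription factor of the response, had a difference of 0.58 and CXCL10, a chemokine, one of -0.62, neither past the threshold.

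The 12 highest differences among called bright clusters with 1 symbol came from genes of varied function. A bright cluster without a symbol reached 2.76 but was not called. DHX16, a spliceosomal helicase, lay at 8.94 and 8.10 in total RNA and 10.48 and 11.27 on polysomes (difference 2.36 ± 0.46, adjusted p = 0.0288). STING1, the endoplasmic reticulum adaptor of the cytosolic DNA response, lay at 11.82 and 11.68 against 13.52 and 14.62 (difference 2.32 ± 0.33, adjusted p = 0.00636). In DMSO and silvestrol cells its differences were 1.28 and 1.20, neither past the threshold, and neither interaction passed (1.04, adjusted p = 0.644, and 1.12, adjusted p = 0.702). MOGS, the glucosidase that first trims N-linked glycans, lay at 13.25 and 13.00 against 15.41 and 15.02 (difference 2.09, adjusted p = 0.0145), and it was also higher on polysomes in silvestrol cells (2.48, adjusted p = 0.0107).

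P4HA2, a subunit of the enzyme that hydroxylates collagen prolines, lay at 13.22 and 12.59 against 14.77 and 15.10 (difference 2.03, adjusted p = 0.0171). SLC52A2, a riboflavin transporter, lay at 10.13 and 9.83 against 12.46 and 11.70 (difference 2.11, adjusted p = 0.0337). GSDMD, which forms pores in the plasma membrane when cut, lay at 9.18 and 8.16 against 10.76 and 10.53 (difference 1.97, adjusted p = 0.0294). APEH, SERINC2, SLC75A1, RPS6KA1, ALG1L2 and UNC93B2 had differences of 2.25, 2.25, 2.24, 2.11, 2.05 and 1.94. RPS6KA1 is a kinase downstream of ERK, and ALG1L2 and UNC93B2 resemble other genes, so their clusters may read those.

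Solute carriers, listed after the values were seen, had 5 of 86 bright clusters higher (5.81%) and 1 lower (1.16%), against 0.82% and 6.52% of all bright clusters, with a median of 0.27. Centring on bright clusters gave 9 higher. SLC29A1, a nucleoside transporter, and SLC39A7, a zinc transporter of the secretory pathway, had differences of 1.89 and 1.71. SLC25A36, a mitochondrial carrier, was the lower one at -1.79. TMEM63A, TMEM63B and TMEM214 were the higher 3 of 65 bright clusters with a TMEM symbol (differences 1.83, 1.61 and 1.25, 0 lower), a share of 4.62%, and TMEM63B and TMEM214 passed in DMSO and silvestrol cells too. The 65 as a list had a median difference of -0.23 with 39 below 0, which turned to between 0.02 and 0.17 under both quantile normalizations and centring on bright clusters.

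Protein-coding messages made up part of the 12 lowest differences among clusters with 1 symbol. Clusters without a symbol, which reached -4.80, are not among them although they made up 41 of the 49 lower ones beyond 8-fold. NREP, a short protein studied in regenerating neurons and in scarring, lay at 11.55 and 12.28 in total RNA and 8.64 and 8.22 on polysomes (difference -3.49 ± 0.34, adjusted p = 0.00134). DMSO cells had 10.41 and 9.66 against 9.82 and 10.09, and silvestrol cells 11.66 and 12.08 against 10.70 and 10.38. The interaction of NREP with DMSO cells was -3.41 (adjusted p = 0.0111), and that with silvestrol cells, -2.16, did not pass. TOMM7, a small subunit of the mitochondrial import pore, lay at 14.46 and 14.71 against 12.27 and 11.12 (difference -2.88, adjusted p = 0.00595), with differences of 0.29 and -0.17 in DMSO and silvestrol cells.

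GNG12, a G protein gamma subunit, lay at 13.68 and 13.05 against 10.80 and 10.26 (difference -2.84, adjusted p = 0.00173). DPY30, a subunit of histone H3 lysine 4 methyltransferases, lay at 11.81 and 12.10 against 8.99 and 9.28 (difference -2.81, adjusted p = 0.0039). FAM200B lay at 12.45 and 13.02 against 9.55 and 9.42 (difference -3.25, adjusted p = 0.00119). All 3 were also lower in silvestrol cells, with differences of -1.51, -1.62 and -1.72. CEBPZOS, which lies opposite the gene CEBPZ, lay at 13.97 and 14.51 against 11.58 and 10.64 (difference -3.13, adjusted p = 0.00534).

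RNA polymerase II and respiratory chain subunits, 2 lists drawn up after the values were seen, held further lower clusters. Of 6 bright polymerase clusters, 0 were higher and 3 (50%) lower, against 0.82% and 6.52% of all bright clusters. Their median was -1.92 in IFNg cells, -0.02 in DMSO cells and -0.61 in silvestrol cells. POLR2K lay at 12.60 and 12.58 in total RNA and 9.91 and 10.02 on polysomes (difference -2.63, adjusted p = 0.00407). POLR2J and its near-copy POLR2J3 had differences of -2.40 and -2.65 and may share signal, so the 3 calls may not be separate measurements. The respiratory chain list takes genes by the start of their symbol, so it also holds assembly factors such as NDUFAF2 and the inhibitor ATP5IF1. Of its 30 bright clusters, 1 (3.33%) was higher and 4 (13.3%) lower, against 0.82% and 6.52% of all bright clusters. That balance depended on the scaling: 2 were higher and 0 lower under quantile normalization over all arrays, 2 and 3 within fractions, and 2 and 2 with centring on bright clusters. ATP5MF, UQCRH and NDUFB3 had differences of -2.15, -2.08 and -1.86, and UQCRHL, a near-copy of UQCRH, one of -1.85. UQCRC1, a core protein of complex III, was the higher one, at 14.82 and 14.18 against 16.07 and 16.18 (difference 1.63, adjusted p = 0.0126).

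Mitochondrial ribosomal proteins, also listed afterwards, had 0 of 36 bright clusters past the threshold, against 0.82% higher and 6.52% lower among all bright clusters. Their median was 0.07 in IFNg cells against 0.62 and 0.78 in DMSO and silvestrol cells. Among 13 proteasome clusters, likewise listed afterwards, the median was 0.38, 0 were lower and 1 (7.69%) was higher, against the same shares. The higher one was PSMD2, a subunit of the regulatory particle (difference 1.56, adjusted p = 0.0465). PSMB8 and PSMB9 of this list are also in the antigen presentation list.

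DMSO cells, measured on 4 other arrays, show how far the pattern was present without IFNg. There 40 clusters (0.061%) were higher and 37 (0.0565%) lower on polysomes, 35 (0.448%) and 31 (0.397%) among bright ones. Silvestrol cells had 326 (0.497%) higher and 426 (0.65%) lower, 244 (3.12%) and 332 (4.25%) among bright ones. The IFNg differences of bright clusters had a Pearson correlation of 0.379 with those of DMSO cells and 0.559 with those of silvestrol cells, over 7808 clusters and on arrays not shared. The 64 bright clusters higher in IFNg cells had median differences of 1.38 in DMSO cells, with 60 above 0, and 1.70 in silvestrol cells, with 63 above 0. The 509 lower ones had medians of -0.42, with 74.9% below 0 against 51.1% of all bright clusters, and -0.90, with 88.0% below 0 against 61.1%.

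Of the 64 higher clusters, 4 were called higher in DMSO cells, 6.25% of the 64 and 11.4% of the 35 there. Silvestrol cells shared 41, which are 64.1% of the 64 and 16.8% of 244. Of the 509 lower clusters, 17 were called lower in DMSO cells (3.34% of the 509 and 54.8% of 31), and 108 in silvestrol cells (21.2% and 32.5% of 332). In all 3 treatments 2 bright clusters were higher and 12 lower.

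**Figure D4:**
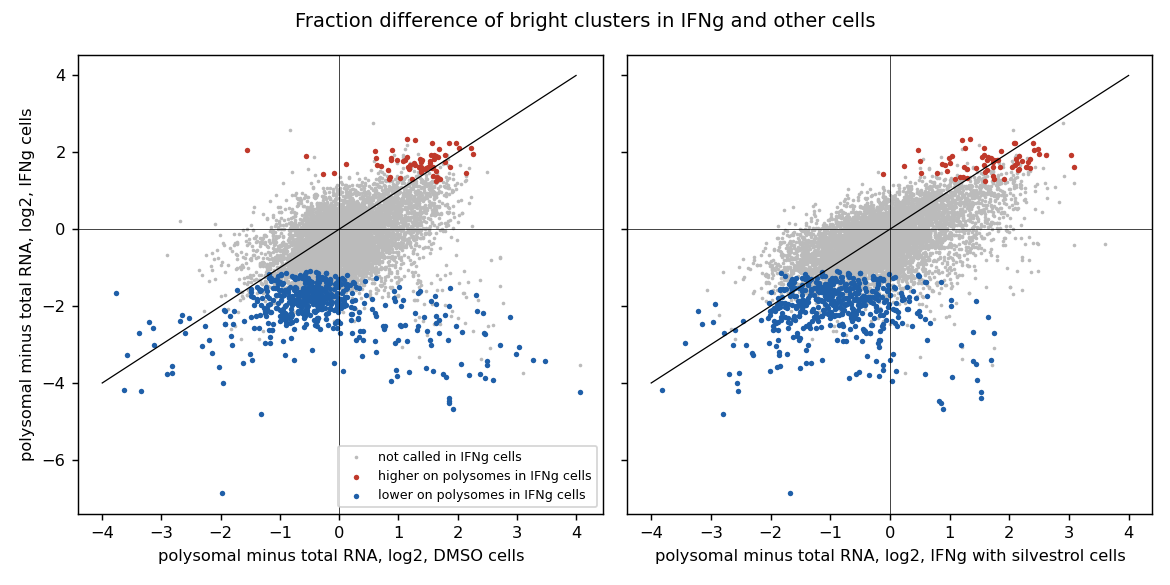
Each point is a bright cluster, with its difference in IFNg cells (log2, y axis) against that in DMSO cells (left) and in silvestrol cells (right, both log2, x axis), and the diagonal line marks equality. Clusters called higher in IFNg cells (red) have medians of 1.38 and 1.70 on the 2 x axes, and those called lower (blue) of -0.42 and -0.90.

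The difference itself was tested with interaction contrasts, which all use the 4 IFNg arrays, the dimmer polysomal ones among them. Against DMSO cells, 7 clusters (0.0107%) had a higher and 105 (0.16%) a lower fraction difference in IFNg cells, 3 (0.0384%) and 73 (0.935%) among bright ones. Against silvestrol cells, 0 were higher and 12 (0.0183%) were lower, 11 of these bright (0.141%). Among bright clusters with 1 symbol the lower ones against DMSO cells included RMRP, NREP, H1-4, EIF4EBP1 and GBP3. Further ones were PPP1R2, an inhibitor of protein phosphatase 1 (interaction -2.90, adjusted p = 0.0308), CENPH, a centromere protein (-2.31, adjusted p = 0.0423), HMGN3, a nucleosome-binding protein (-2.08, adjusted p = 0.0386), and UMAD1 (-2.42, adjusted p = 0.0287), genes singled out after their values were seen.

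Few of these interactions held under most of the 24 alternatives. RMRP, NREP and the SCAP cluster described next passed in 21 of 24 and the PAIP2 cluster in 19. GBP3, H1-4 and EIF4EBP1 passed in 9, PPP1R2 and UMAD1 in 8, CENPH and HMGN3 in 6, none of these 7 under either quantile normalization or centring on bright clusters, and the RMRP interaction with silvestrol cells in 13. RMRP lost its call against DMSO cells with log2(intensity + 16), without total DMSO replicate 1 and without polysomal DMSO replicate 2.

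HMGN3 lay at 9.82 and 10.02 in total RNA and at 7.53 and 7.35 on polysomes of IFNg cells, and at 9.74 and 9.39 against 9.08 and 9.24 in DMSO cells. One cluster each that carries the symbol PAIP2, TIPARP, SCAP, TSNAX or USP34 without an Entrez identifier was also lower, with interactions of -4.57, -5.20, -4.69, -4.50 and -2.96. A second bright USP34 cluster without an identifier was not, with an interaction of -0.10 (adjusted p = 0.979). The clusters matched to those genes had interactions of -1.19, -0.22, -0.71, -0.51 and 0.72, none past the threshold, so the result does not extend to them.

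In the opposite direction stood PRKDC, the DNA repair kinase, and MDN1, a giant protein of ribosome assembly. PRKDC lay at 15.53 and 15.75 in total RNA and 14.05 and 13.89 on polysomes of IFNg cells, and at 15.32 and 15.56 against 11.65 and 11.68 in DMSO cells. It was lower on polysomes in both, by a difference of -1.67 and of -3.77, and the interaction was 2.10 (adjusted p = 0.0379). MDN1 had differences of 0.21 and -2.68, with an interaction of 2.89 (adjusted p = 0.0379). These passed in 9 and 10 of the 24 alternatives.

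**Figure D5:**
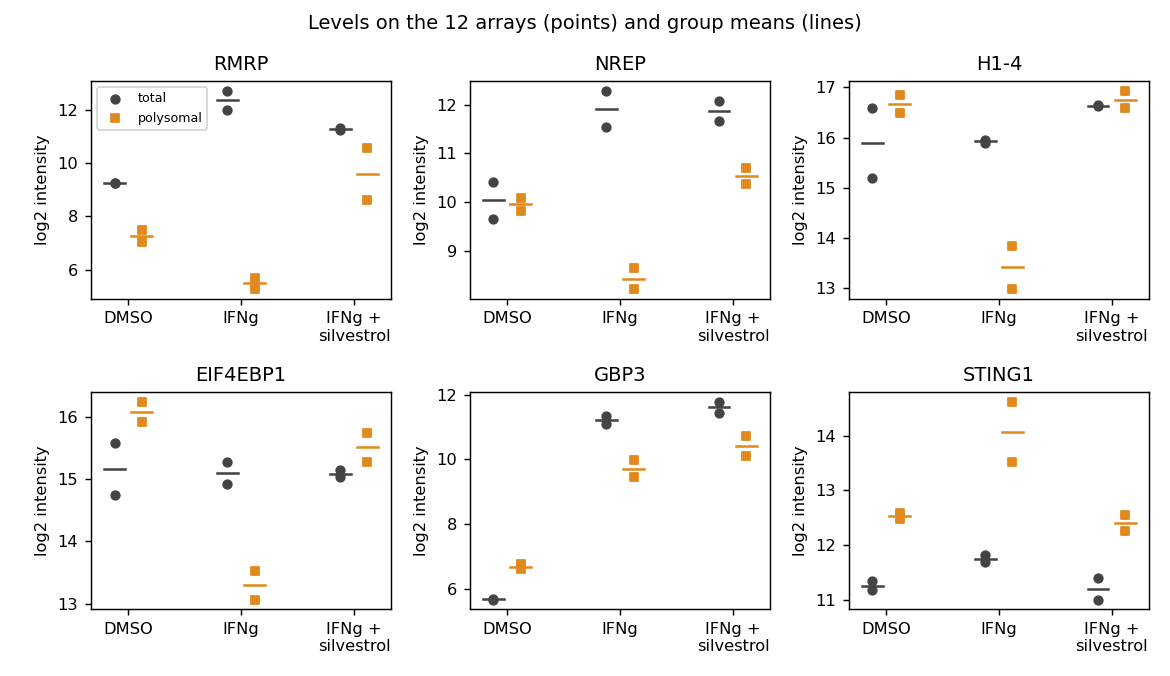
Log2 intensity (y axis) of 6 clusters by treatment (x axis), with total RNA as grey circles and polysomal RNA as orange squares, 1 point per array and a line at each group mean. For RMRP, NREP, H1-4 and EIF4EBP1 the 2 polysomal IFNg arrays lie below all other 10, and for STING1 the polysomal points lie above the total points in each treatment.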

How the data were processed

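Expression was measured on 12 arrays, 2 for each of 6 groups set by the titles. The authors deposited 1 intensity per cluster and array on a linear scale, per the file headers. For software, background correction, normalization and genome build: not given in the sources used here. Log2 was taken with no pseudocount and no filter. All 12 arrays entered a single linear model of group means in limma 3.58.1 under R 4.3.3, whose moderated variances had 6.72 prior and 6 residual degrees of freedom, with Benjamini-Hochberg adjustment over 65535 clusters. The median standard error of a difference was 0.338 for bright clusters, which the number of arrays limits. The script was tested on simulated data. Symbols came from the platform annotation, and 10777 clusters matched RefSeq by Entrez identifier. Named genes were, among called bright clusters with 1 symbol whose fractions did not overlap, the 12 largest differences in each direction, and the called members of the 6 lists of ribosomal proteins, translation factors, histones, antigen presentation, interferon-induced and small RNA genes. Other genes and lists were named after values were seen. Members and lists were chosen with earlier results of these data known. Plots used matplotlib 3.10.9.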

Additional observations from a re-analysis of the deposited data

Results flagged for a closer look

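The fraction difference, polysomal minus total RNA, differed between IFNg and DMSO cells by the interaction contrast in 7 clusters that were higher and 105 that were lower in IFNg cells. Between IFNg and silvestrol cells it differed in 12 clusters, all lower in IFNg cells. Among the named genes the difference between IFNg and DMSO cells was -4.88 for RMRP, -3.41 for NREP, -4.57 for the PAIP2 cluster without an Entrez identifier, -2.72 for EIF4EBP1, -3.29 for H1-4 and -2.52 for GBP3. The difference between IFNg and silvestrol cells was -5.19 for RMRP. The polysomal IFNg arrays, which enter all of these, were the dimmest of the 12 (mean intensity 1237 and 1347 against 1469 to 1720), and under both quantile normalizations and centring on bright clusters the calls for EIF4EBP1, H1-4 and GBP3 were lost, while those for RMRP, NREP and the PAIP2 cluster were kept.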

How the results depend on the processing

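Counts below are clusters higher then lower on polysomes. Fitting only the arrays compared gave 5 and 171 in IFNg cells, 0 and 1 in DMSO cells, 0 and 0 in silvestrol cells, and 0 and 48 for IFNg minus DMSO; fewer arrays then estimate the spread. Quantile normalization over all arrays gave 236 and 404 in IFNg cells, 8 higher in DMSO cells and 66 lower for IFNg minus DMSO, and within each fraction 173 and 540 in IFNg cells, 8 higher in DMSO cells and 64 lower for IFNg minus DMSO. Centring on bright clusters gave 950 and 384 in IFNg cells, 18 higher in DMSO cells, 577 higher in silvestrol cells, and 17 and 64 for IFNg minus DMSO. Testing only bright clusters, with fewer features to adjust over, gave 192 and 1101, 272 and 122, and 540 and 796 in IFNg, DMSO and silvestrol cells, and 20 lower for IFNg minus silvestrol, and testing the brighter part by the median gave 73 higher in DMSO cells. Trended and robust variances gave 7 and 22 in DMSO cells, 266 lower in silvestrol cells and 4 higher for IFNg minus DMSO. With log2(intensity + 16) DMSO cells had 25 and 24, IFNg minus DMSO 1 and 32, and IFNg minus silvestrol 0 lower. Where a cause is not given here, the cause was not tested.

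The bright median of -0.37 became 0.00, -0.16 and 0.03 under quantile normalization over all arrays, within fractions and centring on bright clusters. The replicate block gave 138 higher and 756 lower in IFNg cells, 85 higher in DMSO cells and 4 higher for IFNg minus DMSO, and it ended 1 of the 51 named calls. Same-numbered arrays of the 2 fractions had deviations correlated at 0.0785 in IFNg cells, 0.249 in DMSO cells and 0.320 in silvestrol cells. The main fit did not take the numbers as pairs, because the labels do not say that they mark a shared culture.

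Leaving out 1 array at a time gave, over the 12 arrays, 3 to 116 higher and 112 to 717 lower in IFNg cells, 0 to 23 and 1 to 35 in DMSO cells, and 0 to 344 and 0 to 465 in silvestrol cells. It gave 0 to 15 higher and 37 to 137 lower for IFNg minus DMSO, 0 to 1 and 0 to 28 for IFNg minus silvestrol, and bright medians of -0.45 to -0.29. A lone array left in a group is assumed to vary like the others. Over 24 alternatives, the 51 named calls kept their call in 971 of 1224 values, lost it in 253 and turned direction in 0. With 2 arrays a group and no detection call, dim levels and differences near 1 on the log2 scale are the least certain.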

Other observations

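Clusters below the mean level of 7 also gave calls in IFNg cells. There were 54 higher on polysomes, with a median difference of 1.44 (1.05 to 1.98), and 178 lower, with a median of -1.74 (-3.91 to -1.20). In DMSO cells the same 54 had a median of 0.06 with 32 above 0, and the 178 a median of -0.33 with 60.7% below 0, so the dim higher clusters lay near 0 there while the bright higher ones had a median of 1.38. No detection call separates these levels from background.

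By chromosome, the share of bright clusters lower on polysomes ran from 4.73% of 634 on chromosome 4 to 7.46% of 818 on chromosome 5, and the share higher from 0.473% on chromosome 4 to 1.24% on chromosome 3.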
